A study of Mus musculus with 12 samples.

Results

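Type I collagen, type III collagen and Sparc were followed in mouse skin after a burn through every probe set that names 1 of the 4 genes Col1a1, Col1a2, Col3a1 and Sparc and no other gene. Of 7275 probe sets in the expression table, 8 met this rule: 2 for Col1a1, 2 for Col1a2, 3 for Col3a1 and 1 for Sparc. Probe sets of 1 gene did not behave alike, so all 8 are described. The 12 samples were total RNA from murine skin, each on 1 array. There were 3 labelled 0 hours, 3 labelled 2 hours, 3 labelled 3 days and 3 labelled 14 days after thermal injury. The labels give no strain, sex, age, genotype or treatment other than the injury. They do not say whether the 0 hours skin had been burnt. Nor do they say whether the 3 repeats of a time came from separate animals or separate pieces of skin. The tests therefore rest on a spread between samples that may be technical.

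Collagens I and III form the fibres that give dermis its tensile strength. Col1a1 and Col1a2 encode the alpha 1 and alpha 2 chains that wind together into type I collagen, the main collagen of skin, tendon and bone, while Col3a1 encodes the single chain type of collagen III, which is prominent in fetal skin and in granulation tissue. Sparc encodes osteonectin, a collagen-binding matrix protein that takes part in fibril assembly. In skin these genes are expressed mainly by dermal fibroblasts, and wound repair is known to lay down collagen III early and to build up collagen I later.

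The genes do not sit together in the genome (mouse RefSeq annotation, GRCm38.p6). Col3a1 lies at chr1:45311538-45349706, Col1a2 at chr6:4505618-4541543, Sparc at chr11:55394159-55420080 and Col1a1 at chr11:94936224-94953042. Because the 4 genes fell together at 2 hours, the 250 bases before the RefSeq start are printed below for the 3 genes with an entry in the promoter table, on the gene's own strand. Capitals mark motifs found by a search of both strands for the letters TATAAA, known as the TATA box, for CCAAT, for GGGCGG, known as the GC box, for TGANTCA, bound by AP-1, and for CAGAC, a core Smad sequence. None of the matches shown in capitals overlaps another.
Col1a2 (chr6:4505368-4505617, plus strand): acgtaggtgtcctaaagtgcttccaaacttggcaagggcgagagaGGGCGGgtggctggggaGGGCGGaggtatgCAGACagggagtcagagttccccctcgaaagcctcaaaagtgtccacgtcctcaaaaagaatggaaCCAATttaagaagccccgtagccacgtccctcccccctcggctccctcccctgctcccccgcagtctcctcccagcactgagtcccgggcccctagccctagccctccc
Col3a1 (chr1:45311288-45311537, plus strand): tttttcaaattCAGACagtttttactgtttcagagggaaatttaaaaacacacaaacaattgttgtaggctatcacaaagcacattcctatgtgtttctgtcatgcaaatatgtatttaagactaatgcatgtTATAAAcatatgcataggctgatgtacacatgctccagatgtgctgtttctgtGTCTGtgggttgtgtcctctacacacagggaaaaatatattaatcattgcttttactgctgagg
Sparc (chr11:55420081-55420330, minus strand): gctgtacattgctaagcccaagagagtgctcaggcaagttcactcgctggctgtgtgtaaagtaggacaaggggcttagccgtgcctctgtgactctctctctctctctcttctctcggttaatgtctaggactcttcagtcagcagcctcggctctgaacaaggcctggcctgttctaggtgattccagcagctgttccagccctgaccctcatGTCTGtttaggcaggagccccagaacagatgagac
The Col1a2 window held 1 CCAAT, 2 GGGCGG and 1 CAGAC, and its GC content was 62%. The Col3a1 window held 1 TATAAA and 2 CAGAC, 1 of them as GTCTG on the opposite strand, and its GC content was 35.2%. The Sparc window held 1 CAGAC, also as GTCTG, and its GC content was 54%, near the median of 52.4% over all promoter entries. Over 32851 promoter windows of the same length, CAGAC occurred in 42.2%, CCAAT in 33.8%, GGGCGG in 32.7%, TATAAA in 12.4% and TGANTCA in 6.75%. CAGAC was thus the 1 motif found in all 3 windows, and it is also the most common of the 5 searched.

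The values are signal intensities on a linear scale, without detection calls. Array medians lay between 448.4 and 496.4 units and the brightest probe set of each array between 50785 and 72163 units. Spearman correlations were 0.876 to 0.960 between arrays of 1 time and 0.803 to 0.940 between times. Of the 7248 probe sets that were not controls, 4216 were above 475.55 units, the median of all values, on at least 3 arrays and were tested, and all 8 collagen and Sparc probe sets were among them on every array above the floor of 225.375 units. The skin label was set against markers of its cells. Of 22 keratinocyte markers 16 had a probe set of their own and 14 passed the same filter. Of 21 fibroblast markers 18 had one and 15 passed, and of 41 skeletal muscle markers 32 had one and 28 passed. Signals of different probe sets are not on 1 scale, so levels are compared only within a probe set.

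Both Col1a1 probe sets were lower at 2 hours and 3 days than at 0 hours, but not by the same amount. Only 94305_at had all its 14 days arrays above those of 2 hours and 3 days. Probe set 94305_at read 57181, 46906 and 47843 units at 0 hours, 29062, 22804 and 28624 at 2 hours, 22992, 26290 and 29348 at 3 days, and 40385, 37830 and 33035 at 14 days. The 0 hours arrays were all above the 14 days arrays, and these were all above the arrays of 2 hours and 3 days, which overlapped. The second Col1a1 probe set, 103709_at, read 40601, 35460 and 43053 units at 0 hours and 10211, 11192 and 14824 at 2 hours. It then stayed low, with 9553, 8379 and 7496 units at 3 days and 9887, 11080 and 8490 at 14 days. All 9 later arrays of 103709_at were below all 3 arrays of 0 hours, and 14 days overlapped both 2 hours and 3 days.

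For Col1a2, the main probe set 101130_at read 36884, 31068 and 32919 units at 0 hours, 11591, 10884 and 10511 at 2 hours, 13285, 13396 and 15141 at 3 days, and 29712, 22968 and 18074 at 14 days. No 2 times overlapped: 0 hours was highest, then 14 days, then 3 days, then 2 hours. The dim second probe set 161156_r_at read 1944, 1404 and 3564 units at 0 hours, and every other array lay between 1375 and 1958 units. Its times overlapped throughout, and the single high value came from 0 hours replicate 3. The suffix _r marks a probe set for which the array maker relaxed its rules for choosing probes.

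Col3a1 had 3 probe sets. The brightest, 98331_at, read 15632, 15441 and 21169 units at 0 hours, 9443, 9162 and 9740 at 2 hours, 9288, 14624 and 17812 at 3 days, and 16372, 14504 and 13673 at 14 days. Its 2 hours arrays were below all arrays of 0 hours and 14 days, while the 3 days arrays spread from the level of 2 hours to that of 0 hours. Probe set 161984_f_at, whose suffix marks probes that may match related sequences, read 1914, 2033 and 2045 units at 0 hours and 1330, 1631 and 1259 at 2 hours. It read 1496, 1297 and 1625 units at 3 days and 2105, 1338 and 1347 at 14 days, so 2 hours and 3 days were below 0 hours and 14 days overlapped all times. Probe set 102990_at read 1386, 2055 and 2101 units at 0 hours and 592.1, 629.8 and 432.6 at 2 hours. It was back at 1275, 1327 and 3015 units at 3 days and at 3897, 2252 and 1449 at 14 days. All 3 of its 2 hours arrays were below the other 9, and those 9 overlapped between times.

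Sparc had 1 probe set, 97160_at. It read 15353, 14390 and 16493 units at 0 hours, 6216, 8114 and 7885 at 2 hours, 6934, 6233 and 7751 at 3 days, and 10749, 10218 and 8226 at 14 days. As for Col1a1 94305_at, 0 hours was above 14 days, and 14 days was above the overlapping arrays of 2 hours and 3 days.

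**Figure D1:**
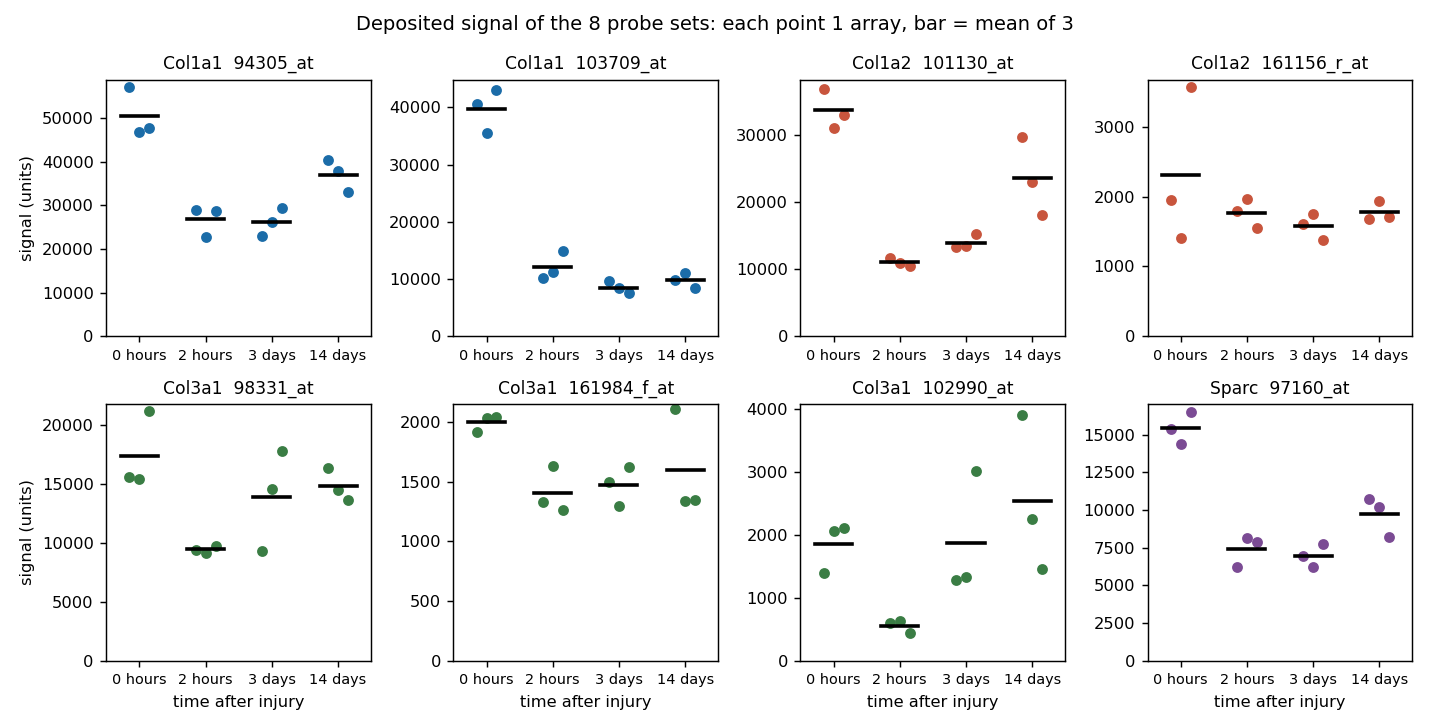
Deposited signal in units (vertical axes, from 0) at each time after injury, 1 panel for each of the 8 probe sets, 1 point per array and a bar for the mean of 3. In 7 panels all points at 2 hours lie below all points at 0 hours, the exception being Col1a2 161156_r_at, and at 14 days Col1a1 94305_at is above its 2 hours points while Col1a1 103709_at is not.

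Tested over the 4 times at once with limma, 5 of the 8 probe sets changed: both of Col1a1 (adjusted p = 0.0055 for 94305_at and 1.8e-05 for 103709_at), Col1a2 101130_at (0.00033), Col3a1 102990_at (0.0038) and Sparc (0.0021). Of all 4216 probe sets tested, 21.4% passed this test, and Col1a1 103709_at ranked 11 among them by its p-value. Col3a1 98331_at, at an adjusted p of 0.055, Col3a1 161984_f_at, at 0.21, and Col1a2 161156_r_at, at 0.57, did not pass. Adjusted p-values are Benjamini-Hochberg values over all probe sets tested, and a probe set is said to rise, fall or change when its value is below 0.05.

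The question put to the 2 hours skin is what happens to these genes at the earliest sampled time after the injury. At 2 hours at least 1 probe set of every one of the 4 genes fell against 0 hours. On the signal scale with n = 3 arrays per time, Col1a2 101130_at fell from 33623 ± 2971 (SD) to 10995 ± 548 units, 3.05-fold lower, with a log2 change of -1.61 ± 0.20 (SE) and a limma adjusted p of 0.00037. Col1a1 103709_at fell from 39704 ± 3875 to 12075 ± 2430 units, 3.32-fold lower (log2 change -1.73 ± 0.20, adjusted p = 0.00019), and Col1a1 94305_at from 50643 ± 5681 to 26830 ± 3493 units, 1.89-fold lower (-0.92 ± 0.18, 0.012). Sparc fell from 15412 ± 1053 to 7405 ± 1036 units, 2.09-fold lower (-1.07 ± 0.19, adjusted p = 0.0041). Col3a1 102990_at fell 3.33-fold, from 1847 ± 400 to 552 ± 105 units (-1.74 ± 0.37, adjusted p = 0.014), and Col3a1 98331_at fell 1.82-fold, from 17414 ± 3253 to 9448 ± 289 units (-0.87 ± 0.23, 0.042). The remaining probe sets were not called: Col3a1 161984_f_at had a log2 change of -0.51 with a 95% interval of -0.96 to -0.07 (adjusted p = 0.16), and Col1a2 161156_r_at one of -0.28 with an interval of -0.86 to 0.30 (0.58).

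In all, 6 of the 8 fell and 0 rose at 2 hours, where 1.71% of all probe sets tested fell and 3.80% rose. The log2 changes of the 8 had a median of -0.99, against 0.05 over all probe sets tested. All 3 arrays of 2 hours lay below all 3 of 0 hours in 7 of the 8, against 9.63% of all probe sets tested. The calls of Col1a2 101130_at, Col1a1 103709_at and Sparc stood whichever of the 12 arrays was left out. That of Col1a1 94305_at was lost without 2 hours replicate 2 (log2 change -0.81, adjusted p = 0.051), and that of Col3a1 102990_at without 0 hours replicate 3 (-1.63, 0.060) or 2 hours replicate 3 (-1.57, 0.075). The call of Col3a1 98331_at was the weakest: it stood in 3 of the 12 fits that left out 1 array, with adjusted p-values of up to 0.13, reached without 0 hours replicate 3, where the log2 change was -0.72. In bulk skin, fewer cells that make collagen and less collagen RNA in each cell cannot be told apart.

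At 3 days, a time at which inflammatory cells are known to fill a wound, 4 of the 8 were still lower than at 0 hours and none was higher. Of all probe sets tested, 4.58% fell and 8.92% rose in this comparison. The 4 were both Col1a1 probe sets, Col1a2 101130_at and Sparc. Col1a1 103709_at had fallen to 8476 ± 1032 units, 4.69-fold below 0 hours (log2 change -2.23 ± 0.20, limma adjusted p = 1.4e-05), and Col1a1 94305_at to 26210 ± 3179 units, 1.93-fold below (-0.95 ± 0.18, 0.0044). Col1a2 101130_at was at 13940 ± 1041 units, 2.41-fold below (-1.27 ± 0.20, adjusted p = 0.00078), and Sparc at 6973 ± 760 units, 2.22-fold below (-1.15 ± 0.19, 0.0011). Each of these 4 calls stood without any single array. None of the Col3a1 probe sets was called: 98331_at was at 13908 ± 4307 units, with a log2 change of -0.36 and a 95% interval of -0.85 to 0.13, 161984_f_at at 1472 ± 165 units (-0.45, adjusted p = 0.16) and 102990_at at 1872 ± 990 units (-0.08, interval -0.86 to 0.71). Col1a2 161156_r_at was at 1577 ± 190 units (-0.44, adjusted p = 0.29). The median log2 change over the 8 was -0.70, against 0.03 over all probe sets tested.

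At 14 days, when repair tissue is known to remodel, 2 of the 8 were lower than at 0 hours and none was higher. Here 3.75% of all probe sets tested fell and 7.47% rose. Col1a1 103709_at was at 9819 ± 1297 units, 4.05-fold below 0 hours (log2 change -2.02 ± 0.20, limma adjusted p = 5.4e-05), without a return. Sparc was at 9731 ± 1330 units, 1.59-fold below (-0.67 ± 0.19, adjusted p = 0.032). The Sparc call was lost without 0 hours replicate 1 (adjusted p = 0.078) or replicate 3 (0.063) and without any 1 of the 14 days arrays (0.067, 0.072 and 0.11). The others were not called, although all arrays of 14 days lay below all arrays of 0 hours in Col1a1 94305_at (37083 ± 3732 units, log2 change -0.45 with a 95% interval of -0.84 to -0.05, adjusted p = 0.13) and Col1a2 101130_at (23585 ± 5843 units, -0.54 with an interval of -0.96 to -0.12, 0.087). Col3a1 98331_at, at 14850 ± 1382 units (-0.22, adjusted p = 0.58), 161984_f_at, at 1597 ± 441 units (-0.36, 0.28), and 102990_at, at 2532 ± 1248 units (0.36, interval -0.42 to 1.15), overlapped 0 hours. The median log2 change was -0.40, against 0.06 over all probe sets tested. These comparisons with 0 hours share the same 3 arrays of 0 hours, so a gene's values in them are not independent of one another.

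**Figure D2:**
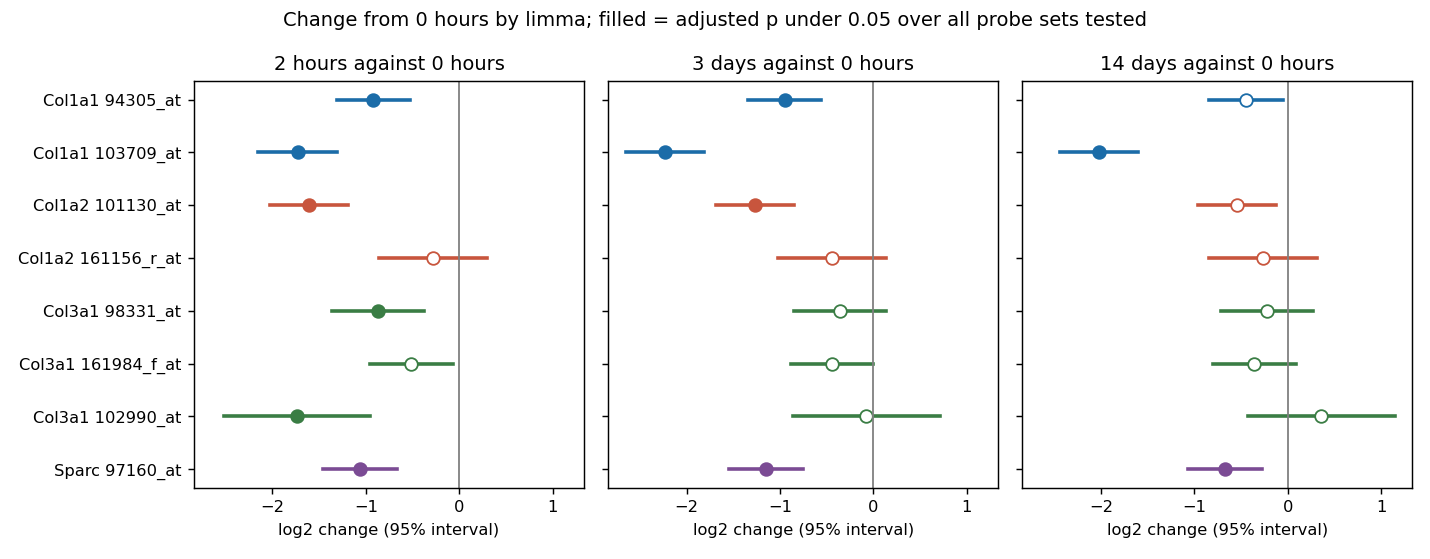
Log2 change from 0 hours (horizontal axes) of the 8 probe sets at 2 hours, 3 days and 14 days, with 95% intervals and filled points for a limma adjusted p under 0.05. The filled points number 6 at 2 hours, 4 at 3 days and 2 at 14 days, all to the left of 0, and Col1a1 103709_at stays near -2 while Col1a2 101130_at moves from -1.61 to -0.54.

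Between the later times, 1 probe set each of Col1a2 and Col3a1 rose again. From 2 hours to 3 days, Col3a1 102990_at rose 3.16-fold (log2 change 1.66 ± 0.37, limma adjusted p = 0.012), 1 of the 8, where 5.83% of all probe sets rose and 2.75% fell. This call was lost without 2 hours replicate 3 (1.50, adjusted p = 0.065) or 3 days replicate 3 (1.26, 0.061). Col3a1 98331_at had a log2 change of 0.51 ± 0.23 over the same days (adjusted p = 0.18), and Col1a1 94305_at and Sparc had ones of -0.03 and -0.08. Col1a1 103709_at was lower still at 3 days, with all arrays below those of 2 hours, but was not called (-0.50 ± 0.20, adjusted p = 0.13). From 2 hours to 14 days, Col1a2 101130_at rose 2.10-fold (1.07 ± 0.20, adjusted p = 0.0034) and Col3a1 102990_at 4.29-fold (2.10 ± 0.37, 0.0024), 2 of the 8, where 7.14% of all probe sets rose and 5.62% fell. Both calls stood without any single array. Col1a1 94305_at (0.47 ± 0.18, adjusted p = 0.11), Sparc (0.39 ± 0.19, 0.18) and Col3a1 98331_at (0.65 ± 0.23, 0.079) were not called, although their 14 days arrays were all above those of 2 hours. The other Col1a2 probe set, 161156_r_at, had log2 changes from 2 hours of -0.17 at 3 days and 0.01 at 14 days.

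From 3 days to 14 days limma called 0 of the 8, where 1.23% of all probe sets rose and 2.04% fell. At an unadjusted p under 0.05 there were 3, all higher at 14 days, where 4.39% of all probe sets tested were: Col1a1 94305_at (log2 change 0.50 ± 0.18), Col1a2 101130_at (0.73 ± 0.20, adjusted p = 0.060) and Sparc (0.48 ± 0.19). In these 3 the 14 days arrays lay above all 3 days arrays, as in 10.9% of all probe sets tested. Without 14 days replicate 3, Col1a2 101130_at had an adjusted p of 0.033 and a log2 change of 0.91.

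The probe sets of 1 gene were compared through their log2 difference within each array, tested over the 4 times with an exact permutation test of all 15400 groupings of the 12 arrays, whose smallest possible p is 6.5e-05. For Col1a1, 94305_at minus 103709_at was 0.35 ± 0.18 (SD, n = 3) at 0 hours and then 1.16 ± 0.30 at 2 hours, 1.63 ± 0.35 at 3 days and 1.92 ± 0.13 at 14 days. It changed with time (exact p = 0.00091, 0.0045 after Benjamini-Hochberg adjustment over 5 pairs of probe sets), the arrays of 0 hours were all below the other 9, and the call stood without any 1 array. So the signal of 94305_at was closer to its 0 hours level at 14 days while that of 103709_at was not, within the same RNA samples. A measure of RNA quality moved over the same times. The log2 ratio of the 3′ over the 5′ end of Gapdh, described below, went from 1.99 at 0 hours to 0.21 at 14 days. Its part in this and the other differences between probe sets was not tested. Over the 12 arrays the 2 probe sets had a Pearson r of 0.78 and a Spearman rho of 0.51, given as a description of arrays that share their time points. Where the 2 probe sets lie on the Col1a1 transcript was not analysed here.

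The Col1a2 probe sets also changed unequally. Their difference, 101130_at minus 161156_r_at, was 3.97 ± 0.67 at 0 hours and then 2.64 ± 0.15 at 2 hours, 3.15 ± 0.28 at 3 days and 3.70 ± 0.39 at 14 days (exact permutation p = 0.027, adjusted 0.034). In the fits that left out 1 array the adjusted p exceeded 0.05 without 0 hours replicate 1 (0.078) or 2 (0.059), any 1 of the 2 hours arrays (0.066, 0.078 and 0.081) or 3 days replicate 2 (0.052).

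Among the Col3a1 probe sets, 102990_at dipped further at 2 hours than the others. The difference 98331_at minus 102990_at was 3.25 ± 0.30 at 0 hours and then 4.12 ± 0.33 at 2 hours, 2.96 ± 0.46 at 3 days and 2.67 ± 0.58 at 14 days (exact permutation p = 0.014, adjusted 0.023). It missed the threshold without 2 hours replicate 1 (adjusted p = 0.057) or replicate 3 (0.089). The difference 161984_f_at minus 102990_at was 0.14 ± 0.28, 1.36 ± 0.19, -0.23 ± 0.59 and -0.58 ± 0.42 at the 4 times in order (exact p = 0.0038, adjusted 0.0096), with 2 hours above all other arrays, also without any 1 array. The remaining pair, 98331_at minus 161984_f_at, ran from 2.76 ± 0.24 at 2 hours to 3.25 ± 0.25 at 14 days (exact p = 0.32). It passed the test in 1 of the 12 fits with an array left out, that without 3 days replicate 1 (adjusted p = 0.045).

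Between genes, each at its brightest probe set, the type I collagen probe sets 94305_at and 101130_at did not fall by the same amount. Col1a1 94305_at minus Col1a2 101130_at was 0.59 ± 0.05 at 0 hours and then 1.28 ± 0.19 at 2 hours, 0.91 ± 0.10 at 3 days and 0.68 ± 0.22 at 14 days (exact permutation p = 0.0021, adjusted over 6 gene pairs 0.012). The 2 hours arrays were above all others, so 101130_at was lower relative to 94305_at at 2 hours than at 0 hours, and this held without any 1 array. The second Col1a1 probe set did not show this: 103709_at minus 101130_at was 0.24 ± 0.13 at 0 hours and 0.12 ± 0.35 at 2 hours, and then -0.72 ± 0.27 at 3 days and -1.24 ± 0.30 at 14 days (exact permutation p = 0.00078, adjusted 0.0021). Which chain fell further therefore depended on the probe set that stood for Col1a1. The comparison with 103709_at was added after the data were seen. Col1a2 minus Sparc was 1.12 ± 0.13, 0.58 ± 0.28, 1.00 ± 0.09 and 1.26 ± 0.18 at the 4 times in order (exact p = 0.0042, adjusted 0.012), again lowest at 2 hours. Its adjusted p rose above 0.05 without 0 hours replicate 1 (0.060) or 2 (0.074), 3 days replicate 2 (0.062) or 3 (0.075), or 14 days replicate 2 (0.068). Col1a2 minus Col3a1 was 0.96 ± 0.30, 0.22 ± 0.10, 0.05 ± 0.41 and 0.64 ± 0.23 (exact p = 0.016, adjusted 0.032), with 2 hours below all arrays of 0 hours and 14 days. It stood in the fits without 0 hours replicate 3, without 3 days replicate 1 and without 14 days replicate 1 or 3, and missed the threshold in the other 8, with adjusted p-values of up to 0.10.

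Between Col1a1 94305_at and Sparc no change of the difference was found. It was 1.71 ± 0.18, 1.86 ± 0.37, 1.91 ± 0.17 and 1.93 ± 0.06 at the 4 times in order (exact permutation p = 0.65), which does not show that they moved alike. Col1a1 103709_at minus Sparc did change, from 1.36 ± 0.05 at 0 hours to 0.70 ± 0.22, 0.28 ± 0.29 and 0.01 ± 0.12 at the later times (exact p = 0.00045, adjusted 0.0021). For Col3a1 minus Sparc the values were 0.16 ± 0.18, 0.36 ± 0.22, 0.95 ± 0.46 and 0.62 ± 0.11 (adjusted p of the exact test 0.066), and for Col1a1 94305_at minus Col3a1 they were 1.55 ± 0.35, 1.50 ± 0.16, 0.96 ± 0.31 and 1.32 ± 0.06 (0.087). Both passed the test without 3 days replicate 1 (adjusted p = 0.0068 and 0.029), and Col1a1 94305_at minus Col3a1 also without 0 hours replicate 3 (0.032). As a description over the 12 arrays, which share their time points, Pearson r was 0.94 between Col1a1 94305_at and Col1a2 101130_at, 0.91 between each of them and Sparc, 0.81 between Col3a1 98331_at and 102990_at, and 0.06 between Col1a1 103709_at and Col3a1 102990_at.

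**Figure D3:**
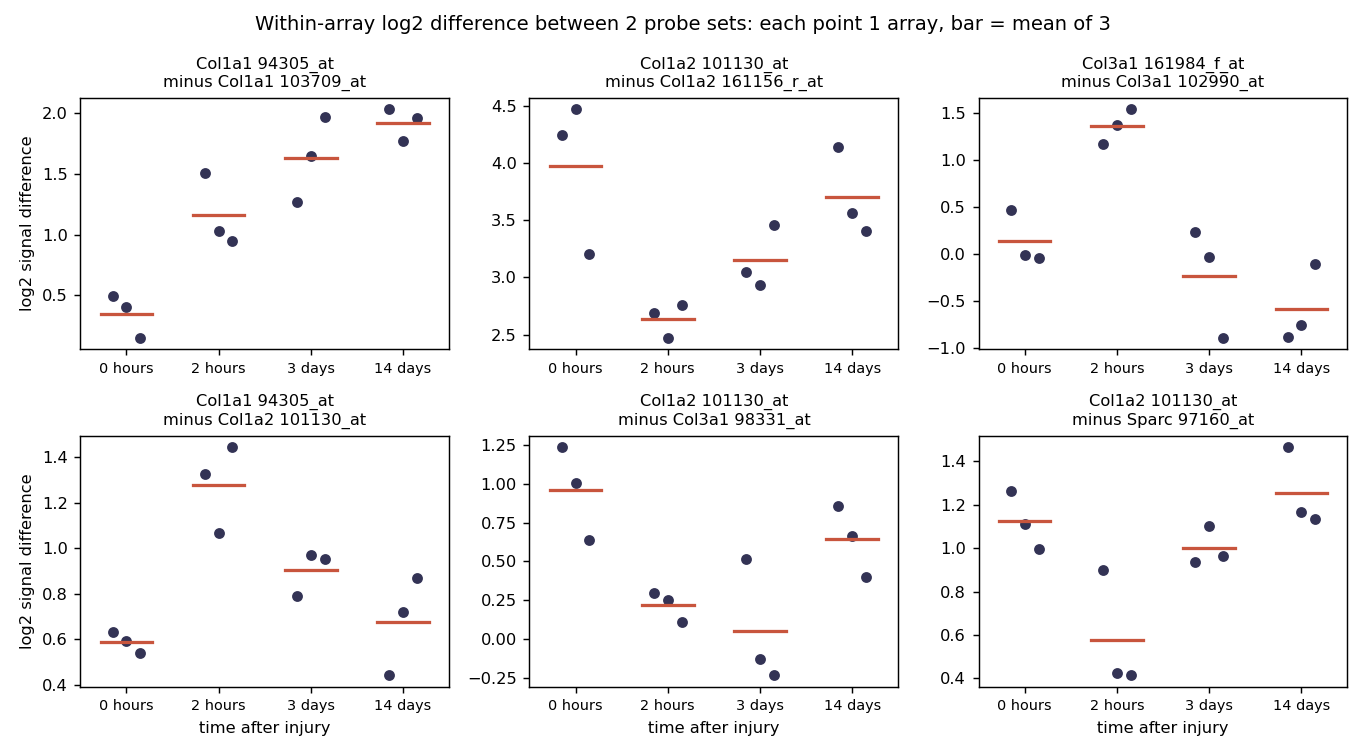
Log2 signal difference within each array between 2 probe sets (vertical axes, scaled per panel) at each time after injury, 1 point per array and a bar for the mean of 3. The upper row pairs probe sets of 1 gene and the lower row pairs genes: the Col1a1 pair has its lowest points at 0 hours, and Col1a1 94305_at minus Col1a2 101130_at has its highest at 2 hours.

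Other measures of the samples moved along the same time axis. The mean log2 signal of the 4 genes' brightest probe sets was 14.66 ± 0.10 (SD, n = 3) at 0 hours and then 13.54 ± 0.04 at 2 hours, 13.73 ± 0.21 at 3 days, and again higher, 14.19 ± 0.21 at 14 days. The mean over 15 fibroblast markers was 11.15 ± 0.01 at 0 hours and 11.24 ± 0.05 at 2 hours, so the collagens fell at 2 hours while this mean was no lower on any 2 hours array than on any at 0 hours. Of these 15 markers limma called 0 at 2 hours (2 higher and 1 lower at an unadjusted p under 0.05), and their median log2 change was 0.14. They include the matrix genes Dcn (0.28) and Lum (0.03), both proteoglycans that bind collagen fibrils, which were picked after their values were seen. Other matrix genes went lower: Bgn, also a proteoglycan, had a log2 change of -0.75 ± 0.26 (limma adjusted p = 0.11). Of 19 fibril partners tested, 3 were higher and 5 lower at 2 hours at an unadjusted p under 0.05, and limma called 0.

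The mean over 28 skeletal muscle markers ranged from 12.79 to 13.61 at 0 hours and then 12.48 to 12.68 at 2 hours, 11.45 to 12.47 at 3 days and 11.95 to 12.39 at 14 days. Of the 28, 3 fell at 2 hours, 17 at 3 days and, with 1 that rose, 16 at 14 days. Over all probe sets tested, 1.71%, 4.58% and 3.75% fell at these times in order, and 3.80%, 8.92% and 7.47% rose. The mean over 17 of 27 monocyte and macrophage markers was 9.69 ± 0.09 at 0 hours and then 9.72 ± 0.42 at 2 hours, 11.41 ± 0.32 at 3 days and 10.15 ± 0.05 at 14 days, and 16 of the 17 rose at 3 days. That over 14 keratinocyte markers was 11.73 ± 0.36, 12.07 ± 0.11, 12.11 ± 0.06 and 12.84 ± 0.19 in the order of the times, with 7 of the 14 higher at 14 days. Of 4 of 12 mast cell markers 1 rose at 2 hours and 3 at 3 days. At an unadjusted p under 0.05 all 4 were higher at both times. Both of the 2 neutrophil markers tested rose at 3 days. Against 0 hours limma called none of 3 endothelial and 7 adipocyte markers. At an unadjusted p under 0.05, 2 adipocyte markers were higher at 2 hours, 1 was lower at 3 days and 3 were lower at 14 days. The part of these shifts in tissue make-up in the collagen values was not tested, beyond a fit with the muscle mean as a covariate. In that fit, of the 4 calls at 3 days, that of Col1a1 103709_at stood (log2 change -2.09, adjusted p = 0.013). Col1a1 94305_at (-1.03, adjusted p = 0.18), Col1a2 101130_at (-1.40, 0.096) and Sparc (-1.37, 0.093) did not pass, with changes no smaller than without the covariate. Over all 4216 probe sets the fit called 7 at 3 days, against 569 without the covariate.

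The array's control probe sets for Gapdh give the ratio of signal at the 3′ end over the 5′ end of that transcript, a measure that is known to rise as RNA is degraded. As log2 it was 1.99 ± 0.29 at 0 hours and then 1.54 ± 0.46 at 2 hours, 0.52 ± 0.50 at 3 days and 0.21 ± 0.08 at 14 days. Arrays of 0 and 2 hours overlapped, and all of them were above all arrays of 3 and 14 days. The other control ratios did not all go the same way. For actin, the log2 ratio of the 3′ over the 5′ end was 0.0096 ± 0.21 at 0 hours and 0.74 ± 0.54 at 2 hours, and for Gapdh that of the 3′ end over the middle was 0.21 ± 0.15 and 0.66 ± 0.26. Both means were higher at 2 hours, with overlapping arrays, whereas the actin ratio of the 3′ end over the middle was 2.77 ± 0.35 and 1.99 ± 0.57. The part of these ratios in the fall at 2 hours was not tested. With the 3′ over 5′ ratio of Gapdh as a covariate, 5 of the 8 probe sets were still called lower at 2 hours, where that fit called 112 of all 4216 probe sets and the fit without it 232. It called 0 of the 8 at 3 days or 14 days, where it called 2 of all probe sets at each time and the fit without it 569 and 473. Because the ratio and the later times move together, their parts at 3 and 14 days cannot be told apart. The log2 changes of the 4 probe sets called at 3 days were -1.35 for Col1a1 94305_at, -1.68 for Col1a1 103709_at, -1.60 for Col1a2 101130_at and -1.01 for Sparc in that fit, with adjusted p-values of 0.20 to 0.82.

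**Figure D4:**
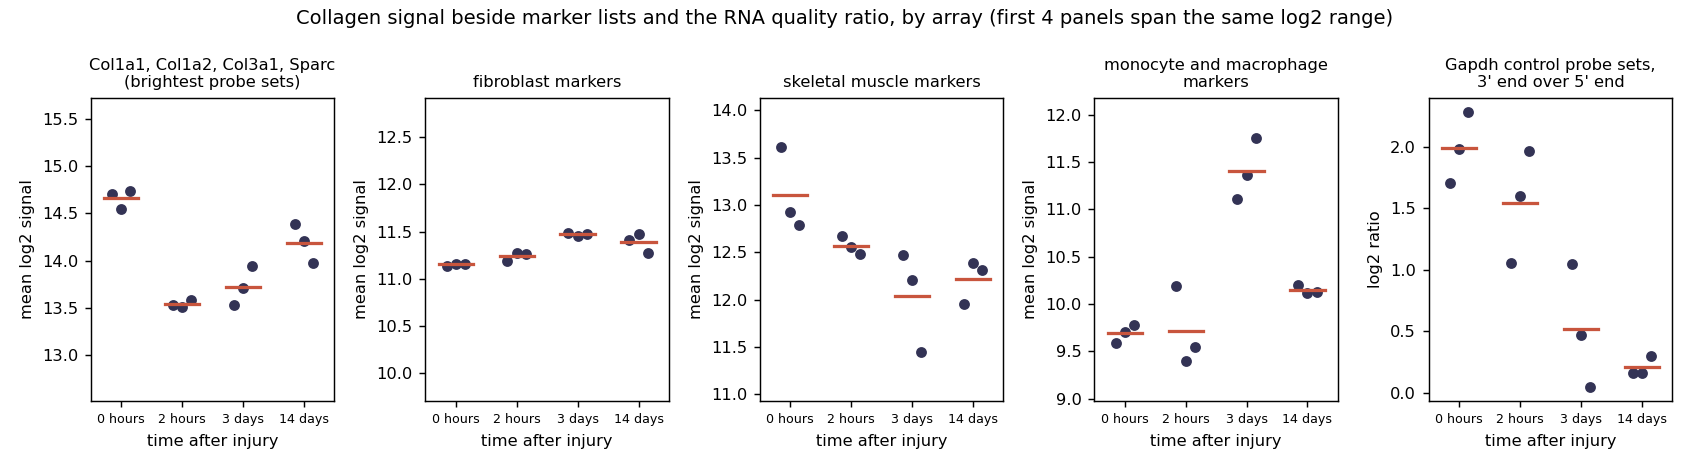
Mean log2 signal by array (vertical axes, the first 4 panels spanning equal ranges) of the brightest Col1a1, Col1a2, Col3a1 and Sparc probe sets and of 3 marker lists, and the log2 ratio of the 3′ over the 5′ Gapdh control probe sets in the last panel, at each time after injury, with 1 point per array and a bar for the mean of 3. The collagen mean is lowest at 2 hours (13.54), where the fibroblast mean is 11.24 against 11.15 at 0 hours, and the Gapdh ratio runs from 1.99 at 0 hours to 0.21 at 14 days.

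The probe sets of other genes most like the 4 were ranked by Pearson r with the mean log2 signal of the 4 brightest probe sets over the 12 arrays, as a description. The 8 with the highest values were Zfp651 (r = 0.919, rho = 0.895), Creb3l1 (0.917, 0.902), Aebp1 (0.907, 0.916), Ppp2r5d (0.901, 0.869), Ctsk (0.901, 0.881), Miga2 (0.898, 0.874), Mrpl20 (0.872, 0.832) and Amz2 (0.868, 0.930). Creb3l1 encodes a membrane-bound transcription factor of the endoplasmic reticulum, and Aebp1 encodes a secreted collagen-binding protein. Ctsk encodes cathepsin K, a protease that degrades collagen. Its signal was 2969.6 ± 129.9 units at 0 hours and then 1232 ± 50.3 at 2 hours, 1609.9 ± 228 at 3 days and 2137 ± 457 at 14 days. Since these 8 were chosen for falling and returning with the collagens, their changes are given here without a test.

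Most genes that act on collagen were not called at 2 hours, as was the case for all probe sets tested, of which 1.71% fell and 3.80% rose. In this and the next paragraphs each gene stands at its brightest tested probe set. Among 15 of 25 genes that modify and secrete procollagen, limma called 0 at 2 hours (1 higher and 4 lower at an unadjusted p under 0.05) and the median log2 change was -0.07. Serpinh1, the collagen chaperone of the endoplasmic reticulum, had a log2 change of -0.70 ± 0.25 (limma adjusted p = 0.12). At 3 days and at 14 days 2 of the 15 rose and none fell, the same genes each time, where 8.92% and 7.47% of all probe sets rose. Pdia6, a protein disulfide isomerase, rose by 1.41 ± 0.28 on the log2 scale at 3 days (adjusted p = 0.0054) and by 1.72 ± 0.28 at 14 days (0.0024), both lower bounds because its 3 arrays of 0 hours were at the floor. Its other probe set rose too, by 0.96 and 1.29. Hspa5, the main chaperone of the same compartment, rose by 0.81 ± 0.20 at 3 days (adjusted p = 0.018) and by 0.82 ± 0.20 at 14 days (0.021), calls that stood in 10 and 9 of the 12 fits that left out an array. Colgalt1, which adds sugar to collagen, had values of 0.62 ± 0.21 and 0.59 ± 0.21 (adjusted p = 0.060 and 0.074).

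Of the genes for processing and cross-linking, 4 of 14 could be tested and limma called 0 against 0 hours (1, Lox, was lower at 2 hours at an unadjusted p under 0.05). Lox, the enzyme that starts the cross-links between collagen molecules, had a log2 change of -0.97 ± 0.33 at 2 hours (limma adjusted p = 0.11). Furin and Pcolce, which take part in trimming procollagen, had changes of -0.05 ± 0.20 and -0.56 ± 0.28.

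Proteins that bind or organise the fibrils changed mainly at 14 days. Of 19 of 30 such genes tested, limma called 0 at 2 hours (3 higher and 5 lower at an unadjusted p under 0.05), 1 fell at 3 days, and at 14 days 6 rose and 1 fell. Among all probe sets tested, 4.58% fell at 3 days, and 7.47% rose and 3.75% fell at 14 days. Postn, which encodes periostin, a matrix protein of healing wounds, rose by 2.09 ± 0.33 on the log2 scale at 14 days (limma adjusted p = 0.002), from a mean of 2752 to 10854 units. Thbs2, thrombospondin 2, rose by 1.87 ± 0.28 (adjusted p = 0.0017). Both calls stood without any single array. Bgn, the proteoglycan biglycan, rose by 0.87 ± 0.26 (adjusted p = 0.046), a call that stood in 5 of the 12 fits that left out an array and that its other probe set did not share (0.18, 0.64). The other 3 that rose were the chains of type VI collagen, a beaded filament around cells: Col6a3 (1.31 ± 0.22), Col6a2 (1.11 ± 0.28) and Col6a1 (0.76 ± 0.19), with adjusted p-values of 0.0028, 0.023 and 0.022. The call of Col6a3 stood without any single array, and those of Col6a2 and Col6a1 in 8 and 9 of the 12 fits, while a second Col6a1 probe set was not called (0.73, adjusted p = 0.065). The gene that fell was Smoc2, at 3 days (-0.88 ± 0.19) and 14 days (-0.68 ± 0.19), calls that stood in 11 and 6 of the 12 fits that left out an array. At 14 days, then, these 3 type VI chains were above their 0 hours level while no probe set of types I and III was called higher, and the difference between the types was not tested. Fn1, which encodes fibronectin, had changes between -0.19 and -0.03 at the 3 times.

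Among the other collagens, 7 of 22 genes were tested and 1 rose at each time. The share of all probe sets tested that rose was 3.80% at 2 hours, 8.92% at 3 days and 7.47% at 14 days. At 2 hours it was Col17a1, of the hemidesmosomes of basal keratinocytes (1.16 ± 0.24, limma adjusted p = 0.013, and 0.070 without 2 hours replicate 3). At 3 days it was Col18a1, of basement membranes (0.87 ± 0.20, adjusted p = 0.012, called in 10 of 12 fits without an array), where its other tested probe sets had values of 0.81 (0.056) and 1.53 (0.008). At 14 days it was Col7a1, of the anchoring fibrils below the epidermis (0.95 ± 0.24, adjusted p = 0.022, called in 9 of 12). At that time the brightest Col18a1 probe set was not called (0.65, adjusted p = 0.051), while its other 2 were higher (0.99, 0.028, and 1.69, 0.007).

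The genes for breakdown and uptake of collagen were called most often at 3 days. Of 14 of 23 tested, 1 rose and 2 fell at 2 hours, 6 rose and 1 fell at 3 days, and 3 rose and 1 fell at 14 days. The shares of all probe sets tested that rose and fell were 3.80% and 1.71% at 2 hours. They were 8.92% and 4.58% at 3 days, and 7.47% and 3.75% at 14 days. At 2 hours Ctsk (-1.27 ± 0.19, limma adjusted p = 0.0017) and Mmp3, stromelysin 1 (-1.35 ± 0.29, 0.015), fell. Reck, a membrane inhibitor of matrix proteases (1.44 ± 0.30, 0.013), rose. The Mmp3 call stood in 9 of the 12 fits that left out an array, and that of Reck in 11. At 3 days the genes that rose were Timp1, an inhibitor of matrix metalloproteinases (3.13 ± 0.47, adjusted p = 0.00074), Mmp9, gelatinase B (2.09 ± 0.33, 0.0011), Mrc1, the macrophage mannose receptor (1.54 ± 0.23, 0.00074), Timp2 (1.44 ± 0.29, 0.0056) and the cathepsins Ctsl (1.28 ± 0.20, 0.001) and Ctsb (0.79 ± 0.19, 0.015). The Ctsb call stood in 10 of the 12 fits that left out an array. Ctsk was lower (-0.89 ± 0.19, adjusted p = 0.0081), a call that stood in 11 of the 12. Ctsk counts here as a member of the list, and its likeness to the collagens given above is no separate evidence. At 14 days Timp2 (1.82 ± 0.29, adjusted p = 0.002), Mmp9 (1.67 ± 0.33, 0.0083) and Mmp11, stromelysin 3 (1.47 ± 0.20, 0.00063), were higher and Mmp3 was lower (-1.36 ± 0.29, 0.0098). The values of Mmp9 and Timp2 are lower bounds, as 2 of the 3 arrays of 0 hours were at the floor for each, and the rises at 3 days stood beside 16 of 17 macrophage markers that rose, whose part was not tested. Of 6 of 16 receptor genes, 1 rose at 3 days: Stab1, a scavenger receptor of macrophages and vessels that takes up Sparc (0.95 ± 0.23, adjusted p = 0.015). Itgb5, an integrin chain, had a change of -0.66 ± 0.19 at 2 hours (adjusted p = 0.053), and Ddr1, a collagen-binding kinase, one of 0.33 ± 0.21 (0.37).

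Of 21 of 41 regulators tested, 1 rose at 2 hours, 3 at 3 days and 2 at 14 days, and none fell. At these times 3.80%, 8.92% and 7.47% of all probe sets tested rose, in this order. Ccn2, the connective tissue growth factor that TGF-beta induces, rose at 2 hours by 1.74 ± 0.37 on the log2 scale (limma adjusted p = 0.015), while the collagens fell. The call was lost without 0 hours replicate 3 (adjusted p = 0.065), 2 hours replicate 1 (0.057) or 2 hours replicate 3 (0.074). Il4ra, the receptor chain for interleukins 4 and 13, rose at 3 days by 2.37 ± 0.36 (adjusted p = 0.00075), as did Il1b, an inflammatory cytokine (3.13 ± 0.48, 0.00075), and Tgfb1, the ligand TGF-beta 1 (1.64 ± 0.38, 0.012). The changes of Il1b and Tgfb1 are lower bounds, since all 3 arrays of 0 hours were at the floor. At 14 days Tgfb1 (1.26 ± 0.38, adjusted p = 0.045) and Ski, a repressor of Smad signalling (0.71 ± 0.18, 0.021), were higher, the Tgfb1 call standing in 2 of the 12 fits that left out an array. With the Gapdh ratio as a covariate, the Tgfb1 change at 14 days was of the opposite sign (-0.55).

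Of the 15 fibroblast markers, 1 rose at 3 days and 3 at 14 days, when 1 fell. Among all probe sets tested, 8.92% rose at 3 days, and 7.47% rose and 3.75% fell at 14 days. Fbln1, a matrix glycoprotein, rose at 3 days (0.79 ± 0.20, limma adjusted p = 0.020) and at 14 days (0.95 ± 0.20, 0.010), Col6a3 rose as given above, and Twist2, a transcription factor of dermal cells, rose at 14 days (1.18 ± 0.35, 0.042, standing in 5 of the 12 fits that left out an array). Of the other 3 Fbln1 probe sets none was called at 3 days (0.24 to 0.37), and 1 was called at 14 days (1.78). Serping1, a complement inhibitor, fell at 14 days (-0.63 ± 0.17, adjusted p = 0.027). Of 7 of 10 myofibroblast and smooth muscle markers, limma called 0 at 2 hours or 3 days (4 lower at 3 days at an unadjusted p under 0.05) and 1 at 14 days: Myh11, the smooth muscle myosin, fell by 1.21 on the log2 scale (adjusted p = 0.026, standing in 8 of 12). Acta2, the actin of myofibroblasts, had changes of -0.28 to -0.10. Counts of called genes are read against the shares of all probe sets given above for each comparison, and no list was tested as a set.

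**Figure D5:**
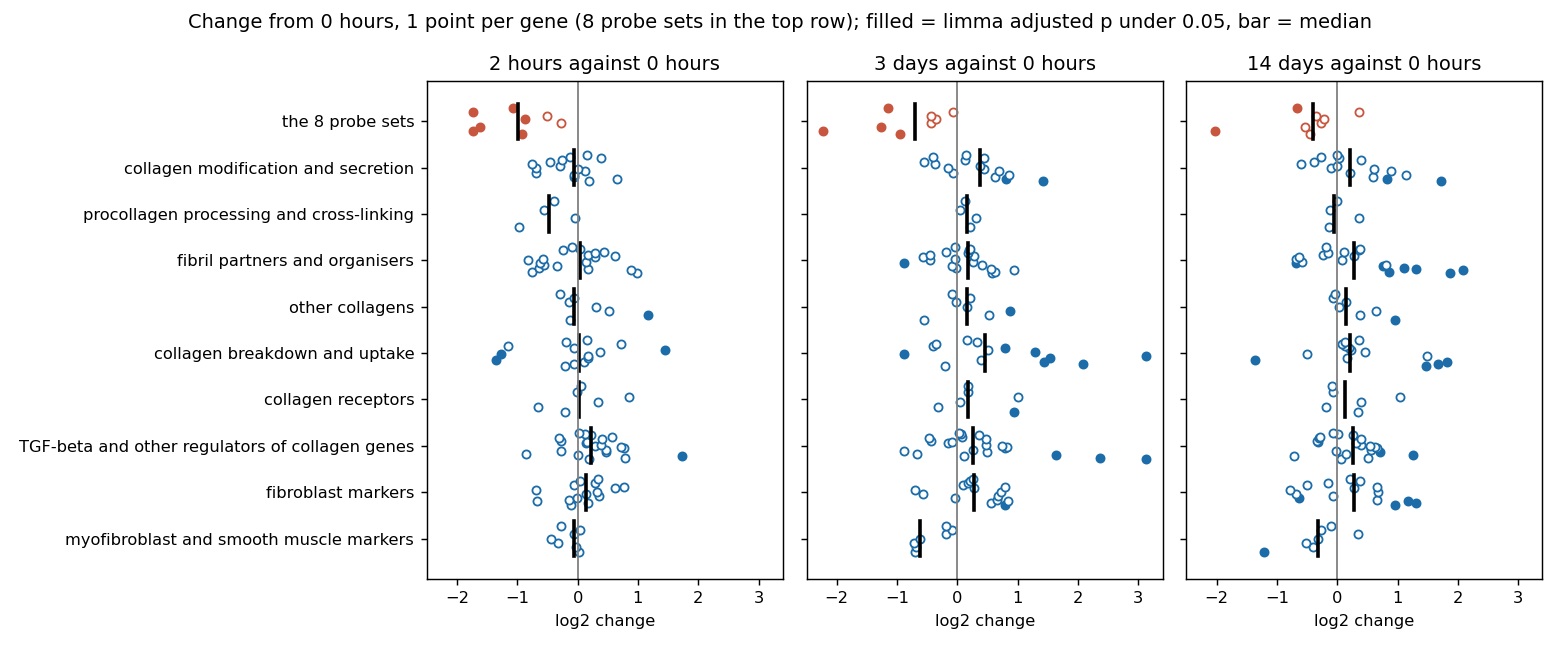
Log2 change from 0 hours (horizontal axes) at 2 hours, 3 days and 14 days for the 8 collagen and Sparc probe sets (top row) and for the genes of 9 lists, 1 point per gene, filled where the limma adjusted p is under 0.05, with a bar at each median. At 2 hours the top row has a median of -0.99, and the fibril partners have one of 0.03, and at 14 days 6 fibril partners are filled to the right of 0 where 2 points of the top row are filled to the left.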

How the data were processed

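The deposited values are 1 signal intensity per probe set and array on a linear scale, from a mouse Affymetrix array, with no scaling, software or detection call given in the sources used here. Groups came from the sample labels. Probe sets were named through the platform annotation, in which 6563 of 7275 carry 1 symbol and 251 several. The 27 control probe sets were left out. Values under the pooled 25th percentile (225.375) were raised to it and log2 was taken. Array trimmed means deviated by at most 8.56%, so no scaling was added. All probe sets above 475.55 on 3 or more arrays were fitted with limma 3.58.1 in R 4.3.3, with 1 coefficient per time and 8 residual degrees of freedom, and the 6 contrasts were adjusted over 4216 probe sets. The code was tested on simulated data. The members and the 16 gene lists were chosen with earlier results of these data known. From each list up to 3 genes with the smallest p over all times were named, and the other called genes named (Col6a1, Col6a2, Smoc2, Mmp3, Reck, Timp1, Mrc1, Ctsl, Ctsb, Tgfb1, Ski, Serping1, and those uncalled: Serpinh1, Fn1, Lum, Dcn, Acta2) were picked after their values were seen. Alternatives covered scaling, floor, filter, variance model, replicate block, 2 covariates and leaving out each array.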

Additional observations from a re-analysis of the deposited data

How the results depend on the processing

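The fall at 2 hours kept 4 to 6 of 8 probe sets called under every alternative run with all 8, and 4 of 4 with 1 probe set per gene, among them 5 with the replicate block and 5 with the Gapdh ratio as covariate. With 1 probe set per gene, 3 of 4 were called over all times, where 5 of 8 were called before. Other counts moved more. At 3 days against 0 hours, 4 calls became 0 when the Gapdh ratio was a covariate and 1 when the muscle marker mean was. At 14 days against 0 hours, 2 calls became 0 with the Gapdh ratio and 1 with 1 probe set per gene, array weights, the replicate block, the muscle mean or only the 2 times fitted, and 1 to 2 without 1 array. At 3 days against 2 hours, 1 call became 0 with no filter, 1 probe set per gene, the Gapdh ratio or the muscle mean, 3 with array weights and 0 to 2 without 1 array. At 14 days against 2 hours, 2 calls became 1 with 1 probe set per gene, 0 with the Gapdh ratio and 4 with array weights. At 14 days against 3 days, 0 calls became 1 with the floor at the 40th percentile, the filter at the 75th or a trended variance, 3 with array weights and 0 to 1 without 1 array. Pairs of probe sets with a change went from 4 of 5 to 2 with the replicate block and to 2 to 5 without 1 array, and pairs of genes from 3 of 6 to 1 to 5 without 1 array, and to 6 with Col1a1 read by 103709_at in place of 94305_at, an alternative chosen after seeing the data.

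Of 1176 refits of the 48 contrasts of the 8 probe sets, 1090 kept direction and call, 45 lost a call, 14 gained one and 27 changed sign, all of the last among values that were not called. The cause was not tested. Leaving out 1 array in turn moved Col3a1 102990_at over -0.48 to 0.14 (3 days against 0 hours) and -0.0074 to 0.71 (14 days against 0 hours). It moved Col1a2 161156_r_at over -0.58 to 0.092 (2 hours against 0 hours), -0.57 to 0.10 (14 days against 0 hours) and -0.083 to 0.086 (14 days against 2 hours). It moved Col3a1 161984_f_at over -0.0068 to 0.18 (3 days against 2 hours), -0.059 to 0.27 (14 days against 2 hours) and -0.13 to 0.20 (14 days against 3 days), Col1a1 94305_at over -0.15 to 0.059 (3 days against 2 hours) and Col3a1 98331_at over -0.12 to 0.35 (14 days against 3 days). The Gapdh covariate turned Col3a1 102990_at to -0.77, Col1a2 161156_r_at to 0.16 and Tgfb1 to -0.55 at 14 days against 0 hours, Col1a1 103709_at to 0.21 and Tgfb1 to -0.097 at 14 days against 2 hours, and Col1a2 161156_r_at to 0.081 and Sparc to 0.010 at 3 days against 2 hours. Tgfb1 is not among the 8 probe sets, and without the covariate it was called higher in both comparisons (limma adjusted p = 0.045 and 0.041). The muscle covariate turned Col3a1 102990_at to -0.67 at 14 days against 0 hours and Col3a1 161984_f_at to -0.089 at 3 days against 2 hours. At 3 days against 2 hours, array weights gave Col3a1 161984_f_at -0.021 and quantile normalization gave Col1a1 94305_at 0.13, and median scaling gave Col1a2 161156_r_at -0.058 at 14 days against 2 hours. No pairing of samples by repeat number was seen: of 18 pairs with the same number, 2 deviated together with a correlation over 0.1. These correlations ran from -0.21 to 0.18, with a median of -0.060. With 3 arrays per time they cannot exclude a pairing, on which the labels are silent.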
